A study of Homo sapiens with 6 samples.

Results

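The long ectopic CENP-A domains described here were stretches of autosomal sequence, away from the centromeres, that were called as CENP-A bound in both libraries of DNAJC9-depleted cells and that reached 15 kb or more. They were chosen by the called peaks of those 2 libraries: overlapping peaks were merged, a merged region was kept where it held a peak of each library, and regions were left out where they touched the 5-Mb window of each chromosome with the most siNeg CENP-A replicate 1 peak sequence, which stands for the centromere. Of 4483 such common regions, 511 were at least 15 kb long and are called long domains, and 3972 were shorter and are called short regions. Their length and their presence in both siDNAJC9 lists are therefore descriptions of how they were selected. The siNeg CENP-A and IgG lists took no part in the choice of the long domains, other than through the siNeg window.

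CENP-A is the histone H3 variant that marks the active centromere and on which the kinetochore is built. When it is made in excess, part of it is deposited on chromosome arms, which is called ectopic CENP-A and is known from tumor cells that overexpress it. DNAJC9 is a heat shock co-chaperone that also binds histones H3-H4 and takes part in their supply to chromatin.

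The cells were hTERT-RPE1-Tet-GFP-CENP-A, an immortalized line of human retinal pigment epithelium in which doxycycline (DOX) switches on GFP-tagged CENP-A. Every group, the siNeg controls included, received DOX at 1 µg/ml for 48 h, starting 48 h after transfection with a negative control siRNA (siNeg) or a DNAJC9 siRNA (siDNAJC9), so that all groups overexpressed CENP-A in addition to their own. CUT&RUN, which uses an antibody to bring a nuclease to its target and sequences the DNA that is released, was done for CENP-A in 2 libraries per siRNA (replicates 1 and 3), and 1 library per siRNA with a nonspecific IgG (replicate 2) served as a control. The study used these libraries to find the places of mislocalized CENP-A after DNAJC9 depletion.

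Each of the 6 lists gives the positions of peaks in the T2T-CHM13v2.0 genome and nothing else. The height of a peak and the reads under it are thus unknown here. A region that a few cells carried cannot be told apart from one that all cells carried at a low level. The study gives a range of total reads for its samples, but the lists do not give the depth of each library. The lists had 11411 and 9018 peaks for siDNAJC9 CENP-A replicates 1 and 3, 1321 and 846 for siNeg, 6904 for siDNAJC9 IgG and 4156 for siNeg IgG. All positions lay on whole kilobases and no peak was under 5 kb. Each list was called against a further IgG library of the same siRNA, not analysed here, so both siDNAJC9 CENP-A lists share that control, and its part in their agreement was not tested. Neither the level of DNAJC9 nor that of CENP-A can be read from the lists.

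The 511 long domains covered 9.66 Mb, which was 0.347% of the 2786 Mb of autosomal sequence outside the windows. Their lengths ran from 15 to 55 kb with a median of 17 kb, and 364 of them measured 15 to 19 kb, 95 measured 20 to 24 kb and 52 measured 25 kb or more. There was no gap in the lengths at the threshold: 107 domains measured exactly 15 kb and 119 regions measured 14 kb. The short regions were most often 9 kb long, as 1081 of the 3972 were. A step lay lower, between 1081 regions of 9 kb and 464 of 10 kb. The lengths thus show no boundary at 15 kb that would set the long domains apart as a class.

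**Figure D1:**
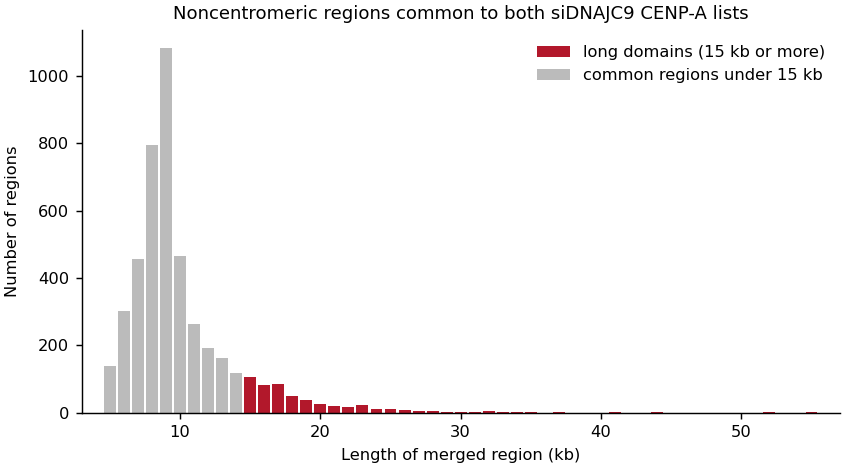
Number of common regions (vertical axis) at each length in kb (horizontal axis), with the short regions and the long domains in separate colors. The numbers fell from the most frequent length of 9 kb without a break at 15 kb, and the longest region measured 55 kb.

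At the threshold, the first domain of 15 kb lay on chromosome 1 at chr1:58718001-58733000. It held 15 kb of siDNAJC9 replicate 1 peaks and 7 kb of replicate 3 peaks. The first region of 14 kb, at chr1:39037001-39051000, held 9 kb and 10 kb. In both, the 2 siNeg CENP-A lists and the 2 IgG lists held 0 kb. Over all regions of these lengths, both siDNAJC9 libraries together covered 59.6% of the bases at 15 kb and 56.9% at 14 kb.

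Of all long domains, the longest lay on chromosome 9 at chr9:21555001-21610000 and spanned 55 kb. SiDNAJC9 replicate 1 covered all 55 kb in 1 peak and replicate 3 covered 47 kb in 1 peak. SiNeg replicate 1 held 8 kb of peaks there, siNeg replicate 3 held 0 kb and both IgG lists held 0 kb. The CENP-A called in the control cells was thus a small piece of the stretch, in 1 of the 2 control libraries. This domain headed a group of 3, with a domain of 25 kb at chr9:21681001-21706000, whose ends were identical in both siDNAJC9 lists, and one of 16 kb at chr9:21781001-21797000.

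The next in length spanned 52 kb at chr4:160275001-160327000, where siDNAJC9 replicates 1 and 3 held 52 and 36 kb. The siNeg and IgG lists all held 0 kb there. On chromosome 12, a domain of 44 kb at chr12:25830001-25874000 held 38 and 39 kb in siDNAJC9 replicates 1 and 3. It was the one of the 10 longest with an IgG peak, 6 kb in the siDNAJC9 IgG list, and it held 0 kb in both siNeg CENP-A lists.

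The domain at chr3:101578001-101619000, 41 kb long, was the single one among all 511 with a peak in both siNeg CENP-A lists. SiDNAJC9 replicates 1 and 3 held 40 and 37 kb, siNeg replicates 1 and 3 held 6 and 5 kb, and both IgG lists held 0 kb. Here CENP-A was called in all 4 CENP-A libraries, over a shorter stretch in the 2 siNeg libraries than in the 2 siDNAJC9 libraries, and the siNeg pieces lay at different places within the domain. The other domain of 41 kb, at chr6:72562001-72603000, held 36 and 31 kb in siDNAJC9 and 0 kb in the siNeg and IgG lists.

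The remaining 5 of the 10 longest measured 33 to 37 kb and held 0 kb of siNeg or IgG peaks. The siDNAJC9 libraries covered the domain at chr14:55760001-55797000 most alike, with 37 and 34 kb. At chr3:69898001-69933000 they held 34 and 31 kb and at chr18:55685001-55720000 32 and 26 kb, in each case with 3 separate peaks in replicate 3. The libraries differed more at chr2:160744001-160778000, with 31 and 16 kb, and at chr1:201002001-201035000, with 32 and 16 kb. The last of these was 1 of 3 domains of 33 kb and was taken as the first in genome order. The libraries of the other two stood in opposite orders, with 25 and 32 kb in replicates 1 and 3 at chr10:92470001-92503000 and 33 and 18 kb at chr10:94335001-94368000.

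**Figure D2:**
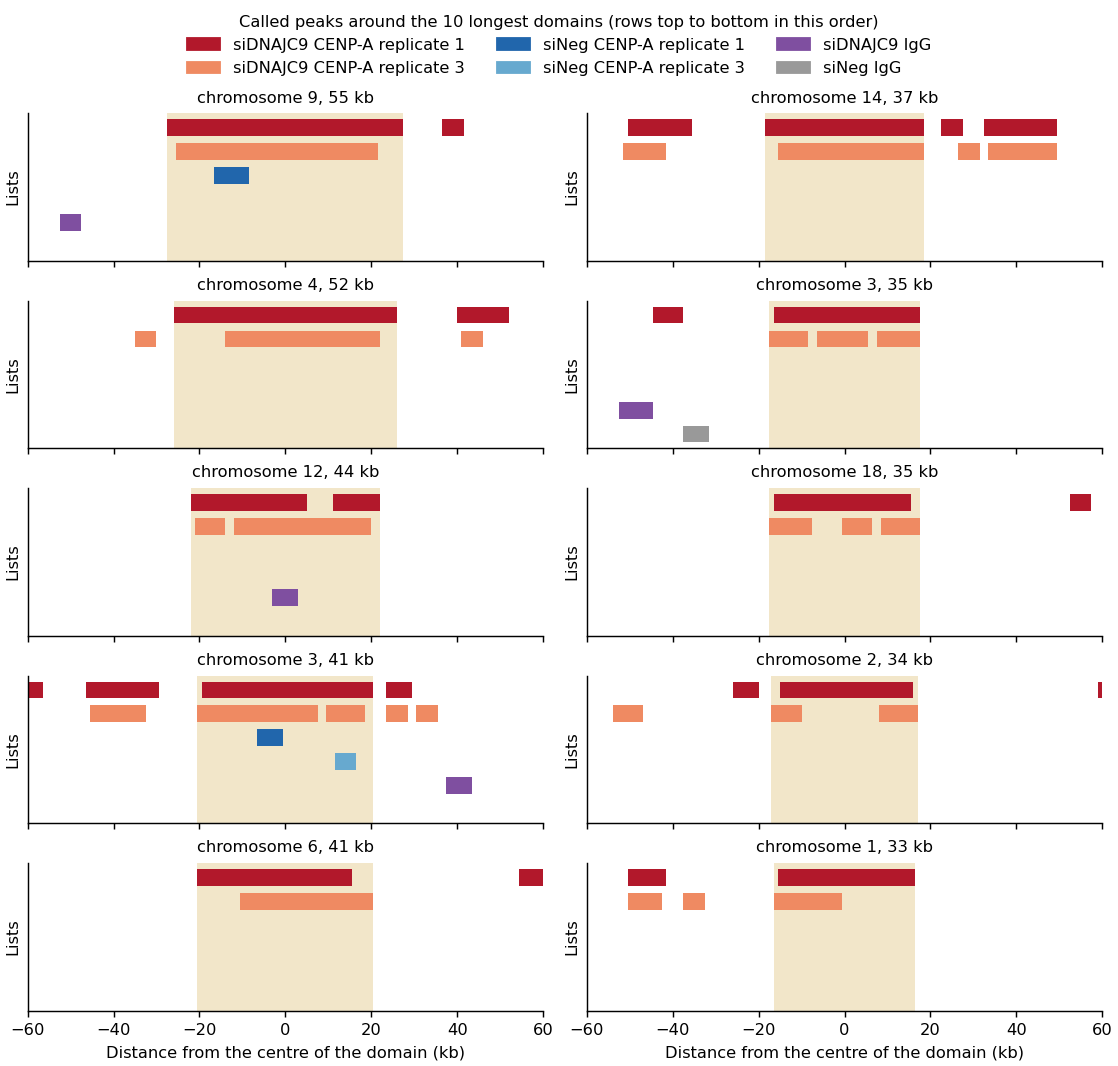
Called peaks of the 6 lists (1 row each) around the centers of the 10 longest domains, with the distance from the center in kb on the horizontal axis and bars for peaks. SiDNAJC9 replicate 3 bars filled between 16 kb of the domains on chromosomes 1 and 2 and 47 kb of the one on chromosome 9, while siNeg bars appeared in the domain on chromosome 9 and the one of 41 kb on chromosome 3 and an IgG bar in the one on chromosome 12.

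Over all 511 domains, siDNAJC9 replicate 1 held 5 to 55 kb per domain with a median of 16 kb, and replicate 3 held 5 to 47 kb with a median of 13 kb. The control libraries were empty in most: siNeg replicate 1 held 0 kb in 492 domains, siNeg replicate 3 in 505, siDNAJC9 IgG in 471 and siNeg IgG in 492. Most common regions of any length were empty too. In the same order, these lists had a peak in 1.58%, 0.491%, 5.60% and 2.65% of all 4483. The pieces of siNeg peaks that lay in domains were 4 to 12 kb long with a median of 5 kb.

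Because a region was merged from the peaks of both libraries, its length could exceed the stretch on which they shared a call. Both siDNAJC9 libraries together covered 59.2% of the bases of the long domains (5716 kb), replicate 1 alone covered 29.2% and replicate 3 alone 11.6%. In the short regions, the shared part was 71.0%. Per domain, the shared part had a median of 56.5% with quartiles of 43.8% and 75.5%, against a median of 75% for the short regions. It was under 50% in 172 of the long domains (33.7%) and in 389 of the short regions (9.79%). The longest unbroken stretch called in both libraries had a median of 9 kb per domain, and 82 domains (16%) held such a stretch of 15 kb or more.

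The domains were made in several ways. In 399 of the 511 (78.1%), 1 peak of each library met, and among these the replicate 3 peak lay inside the replicate 1 peak in 201, the reverse held in 56, the ends were identical in 10 and the peaks were staggered in 132. Each library had a peak of at least 15 kb of its own in 90 domains (17.6%). In 250 (48.9%) that was so for replicate 1 alone, in 94 (18.4%) for replicate 3 alone, and in 77 (15.1%) for neither, so that those 77 reached 15 kb through the merging of shorter peaks. Replicate 1, which had more and longer peaks, held more kb than replicate 3 in 344 domains (67.3%), against 1940 of the short regions (48.8%).

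The extremes show what the range means. At chr15:27592001-27615000 both libraries called the same 23 kb. At chr10:74910001-74932000, a domain of 22 kb, replicate 1 held 15 kb, replicate 3 held 8 kb and they shared 1 kb, the lowest shared part of all 511.

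To describe agreement from each side, long peaks were chosen in 1 library and looked up in the other. Both lists are those that chose the domains. By the rule, a long peak that met a peak of the other library became part of a long domain. The shares are therefore descriptions and no independent check of the domains. Of the 386 peaks of at least 15 kb in siDNAJC9 replicate 1, 340 (88.1%, 95% Wilson interval 84.5 to 90.9%) overlapped a peak of replicate 3, against 4186 of its 10313 shorter peaks (40.6%, 39.6 to 41.5%). Of the 190 such peaks in replicate 3, 184 (96.8%, 93.3 to 98.5%) overlapped a peak of replicate 1, against 4381 of 8219 shorter ones (53.3%, 52.2 to 54.4%). A longer peak has more bases with which to overlap another by position alone. Per base, replicate 3 covered 57.4% of the sequence of the long replicate 1 peaks and 36.5% of that of the shorter ones, and replicate 1 covered 77.2% and 50.5% for those chosen in replicate 3. There was no step at 15 kb: in replicate 1 peaks the covered part was 32.8% at 5 to 9 kb, 55.1% at 10 to 14 kb and 54.5% at 15 to 19 kb, and in replicate 3 peaks 47.8%, 70.8% and 73.9%. The low values of the shorter peaks thus came from those of 5 to 9 kb, and peaks of 10 to 14 kb were covered about as much as those of 15 to 19 kb.

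The other library called a long peak at the same place less often than it called any peak. Of the 386 long peaks of replicate 1, 90 (23.3%) met a peak of at least 15 kb in replicate 3, and of the 190 of replicate 3, 90 (47.4%) met one in replicate 1. This share rose with length: among replicate 1 peaks of 5 to 9 kb it was 0.864%, of 10 to 14 kb 4.55%, of 15 to 19 kb 16.3%, of 20 to 24 kb 33.9% and of 25 kb or more 54.8%. The intervals cover counting error only, since peaks of 1 library are not replicates, and both lists share 1 control.

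**Figure D3:**
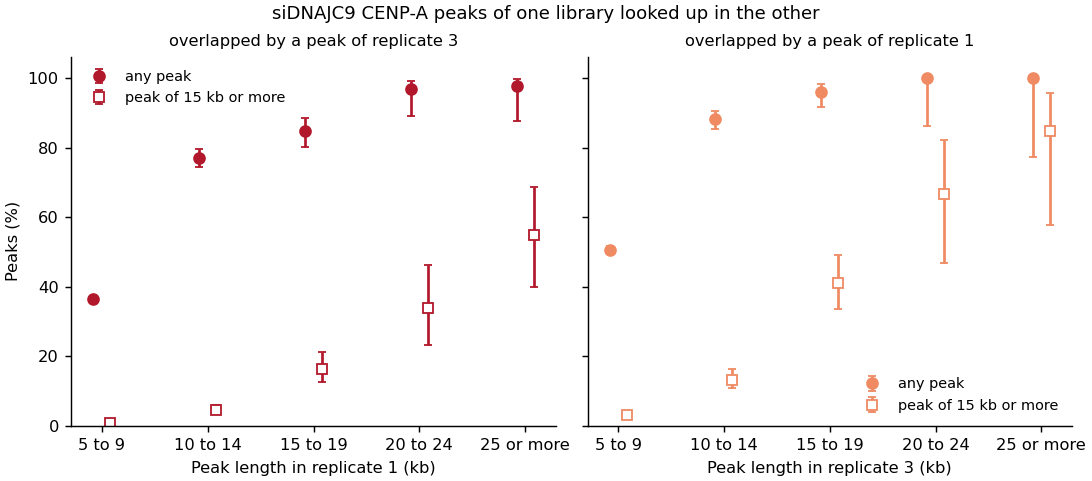
Percent of siDNAJC9 CENP-A peaks of each length class (horizontal axis, kb) that overlapped any peak, or a peak of at least 15 kb, of the other siDNAJC9 replicate, with 95% Wilson intervals as bars and 1 panel for each replicate in which the peaks were chosen. Both shares rose with length, to 97.6% and 54.8% for replicate 1 peaks of 25 kb or more.

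The length of single peaks was compared between the siRNAs, each library on its own and without merging. Outside the windows, siDNAJC9 replicates 1 and 3 had 386 and 190 peaks of at least 15 kb, and siNeg replicates 1 and 3 had 1 and 1. The means were 288 ± 139 and 1 ± 0 peaks (± SD, n = 2), a difference of 8.08 in the mean log2 number. This is a description with no test, because the domains were selected on the length of these siDNAJC9 peaks and the windows left out were those with the most siNeg replicate 1 peaks. As a share of each list, long peaks made up 3.61% and 2.26% of the siDNAJC9 peaks (95% Wilson intervals 3.27 to 3.98% and 1.96 to 2.60%) and 0.226% and 0.719% of the siNeg peaks (0.0399 to 1.27% and 0.127 to 3.96%). The siNeg shares rest on 1 long peak of 442 and 1 of 139. The interval of siNeg replicate 3 held both siDNAJC9 shares and that of siNeg replicate 1 held neither. These intervals cover counting error within a list, since peaks of 1 library are not replicates, and are no comparison of the siRNAs. Much of the difference in number also went with the larger number of peaks of any length, 10699 and 8409 against 442 and 139. The study gives a range of total reads for its samples, but the depth of each library is not known here.

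At 20 kb or more, siDNAJC9 replicates 1 and 3 had 104 and 37 peaks outside the windows and the siNeg libraries had 0 and 0, which with so few siNeg peaks allows shares of up to 0.679% and 2.16% (3 of 442 and 3 of 139). Inside the windows the order was the opposite, with 85 and 71 peaks of at least 15 kb in siDNAJC9 and 204 and 173 in siNeg. The windows were chosen by their siNeg replicate 1 peak sequence, which favors siNeg there. These are numbers of calls and not amounts of CENP-A. Long calls as such were therefore made in the control libraries too, at the centromeres. The IgG lists had 0 long peaks inside the windows.

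The siNeg libraries had 1 common region of at least 15 kb by the same rule, among 19 common regions. It lay at chr5:100549001-100565000, where siNeg replicates 1 and 3 held 15 and 16 kb, siDNAJC9 replicates 1 and 3 held 7 and 0 kb, and both IgG lists held 0 kb. It was no long domain of the DNAJC9-depleted cells.

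IgG made some long calls outside the windows as well: 33 in siDNAJC9, 0.490% of its 6729 peaks and up to 32 kb long, and 1 in siNeg, 0.0247% of 4047. Of these 33 peaks, 12 lay on chromosome 10. None of the 33 overlapped a long domain or a short region, and 0 of 33 allows a share of up to 9.09%. Of all 6729 siDNAJC9 IgG peaks, 0.594% lay in a long domain and 3.14% in a short region. The 0 of 33 cannot be told apart from these shares. When the rule was run on the 2 IgG lists in place of the CENP-A lists, it gave 113 common regions, of which 4 were long and the longest measured 16 kb.

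The long domains were then compared with the control lists, which had no part in their choice apart from the window. A siNeg replicate 1 peak lay in 19 of the 511 domains (3.72%, 95% Wilson interval 2.39 to 5.73%), where over all common regions the share was 1.58%, and in 52 of the short regions (1.31%). A siNeg replicate 3 peak lay in 6 domains (1.17%, 0.539 to 2.54%), where the share over all common regions was 0.491%, and in 16 short regions (0.403%). Any siNeg peak was found in 24 domains (4.70%, 3.18 to 6.89%) and in 64 short regions (1.61%, 1.26 to 2.05%). Over all common regions this share was 1.96%. Most long domains, 487 of 511, thus held no CENP-A called in either control library. This was not particular to them, as common regions of any length were empty more often still.

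A longer region has more bases to be hit. Per base, siNeg replicate 1 covered 1.12% of the long domains and 0.808% of the short regions, and siNeg replicate 3 covered 0.342% and 0.271%. Over all sequence outside the windows the same lists covered 0.0893% and 0.0302%, so that the domains held 12.5 and 11.3 times the coverage of that sequence, and the short regions 9.05 and 8.97 times. Both siNeg libraries thus gave the domains several times their average, and most of the gap between long and short in the count of overlaps was not there per base. No test was made of these ratios, since regions are not replicates.

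The share of domains with any siNeg peak by length was 3.57% at 15 to 19 kb, 6.32% at 20 to 24 kb and 9.62% at 25 kb or more, after 1.23% at 5 to 9 kb and 2.50% at 10 to 14 kb. Per base in siNeg replicate 1, these classes stood at 0.980%, 0.969%, 1.84%, 0.648% and 1.06% in that order, with no steady rise. In the other direction, 4.30% of the 442 siNeg replicate 1 peaks and 4.32% of the 139 siNeg replicate 3 peaks outside the windows lay in a long domain, and 11.8% and 11.5% in a short region.

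The domain with the most siNeg peak sequence was chr4:145713001-145729000, 16 kb long, where siDNAJC9 replicates 1 and 3 held 16 and 14 kb, siNeg replicate 1 held 12 kb, siNeg replicate 3 held 0 kb and both IgG lists held 0 kb. It was the one in which the control call came nearest to the siDNAJC9 call. After the domains of 41 and 55 kb given above, chr3:87054001-87072000 (18 kb) held 7 kb of siNeg replicate 1 peaks beside 18 and 16 kb in siDNAJC9. At chr12:31381001-31403000 (22 kb), siNeg replicate 3 held 7 kb beside 19 and 17 kb.

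A siDNAJC9 IgG peak lay in 40 domains (7.83%, 5.80 to 10.5%), where the share over all common regions was 5.60%, and in 211 short regions (5.31%). A siNeg IgG peak lay in 19 domains (3.72%), where the share over all common regions was 2.65%, and in 100 short regions (2.52%). Per base the order turned: siDNAJC9 IgG covered 2.33% of the long domains and 2.88% of the short regions, and siNeg IgG 0.953% and 1.2%. Against 1.45% and 0.832% over all sequence outside the windows, the domains held 1.61 and 1.15 times the IgG coverage, far below the ratios of the siNeg CENP-A lists. All 4 control lists together touched 79 domains (15.5%), against 9.01% of the short regions and 9.75% of all common regions.

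The highest amount of IgG peak sequence was found at chr10:68959001-68983000, 24 kb long, where siDNAJC9 replicates 1 and 3 held 23 and 23 kb, siDNAJC9 IgG held 6 kb, siNeg IgG held 6 kb and both siNeg CENP-A lists held 0 kb. Its neighbor 2 kb away, at chr10:68937001-68957000 (20 kb), held 9 kb of siDNAJC9 IgG beside 16 and 15 kb of siDNAJC9 CENP-A. Of the 5 domains with the most IgG sequence, 4 lay on chromosome 10. The exception, chr11:122116001-122133000 (17 kb), held 6 and 5 kb of siDNAJC9 and siNeg IgG beside 12 and 14 kb of siDNAJC9 CENP-A.

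The surroundings of the domains also held more CENP-A peaks than the average outside the windows, under both siRNAs. In the 100 kb on each side, siDNAJC9 replicates 1 and 3 covered 12.3% and 9.17% of the sequence for long domains, 8.29% and 6.07% for short regions, and 2.89% and 2.13% over all sequence outside the windows. Within 500 kb the values for long domains were 8.02% and 5.95%, and for short regions 6.04% and 4.44%. The coverage beside a region rose with its length, in replicate 1 from 7.5% at 5 to 9 kb to 16.6% at 25 kb or more. SiNeg replicates 1 and 3 covered 0.290% and 0.103% of the same 100-kb sides of long domains and 0.190% and 0.0675% of those of short regions, against 0.0893% and 0.0302% over all sequence outside the windows. The order of long domains, short regions and average was thus the same in all 4 CENP-A lists. SiDNAJC9 IgG covered 1.17% beside long domains and 1.21% beside short regions, both below its average of 1.45%. SiNeg IgG covered 1.08% and 0.892%, both above its average of 0.832%. The sides were taken for each region on its own, so sequence beside clustered regions was counted repeatedly and could hold other common regions. How far this raised the values was not measured. The siDNAJC9 values come from the libraries that chose the domains and are descriptions.

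**Figure D4:**
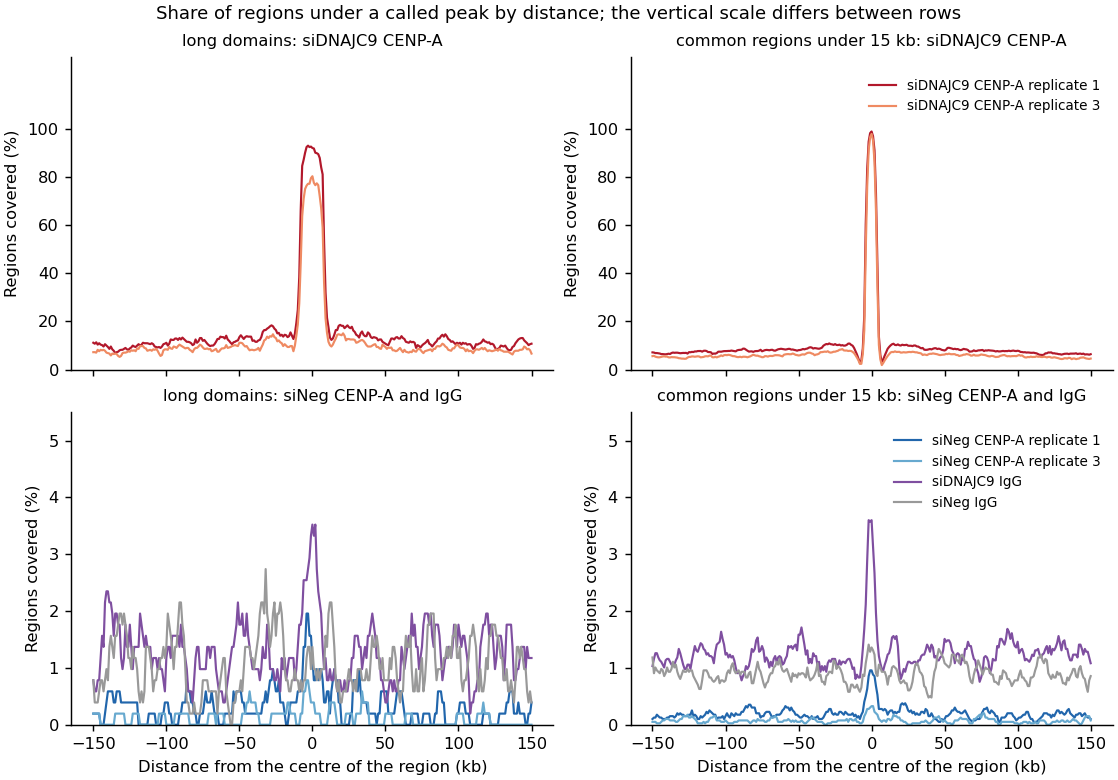
Percent of long domains (left) and of short regions (right) under a called peak at each distance in kb from the center of the region, for the siDNAJC9 CENP-A lists (upper row) and the siNeg CENP-A and IgG lists (lower row, on an expanded scale). Around the long domains, siDNAJC9 coverage stayed above the 2.89% and 2.13% of all sequence outside the windows, and the control lists reached at most a few percent at the center.

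Long domains lay on 21 of the 22 autosomes, at 18.3 per 100 Mb outside the windows against 143 short regions. By number, chromosome 3 had the most with 62 (31.7 per 100 Mb), and by density chromosome 10 did with 52 (40.1 per 100 Mb). Few lay on chromosome 19, with 1 (1.77 per 100 Mb), and on chromosome 20, with 3 (4.91 per 100 Mb). Chromosome 16 had none among its 51 common regions, which allows a share of up to 5.88%.

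The chromosomes with many short regions also had many long domains, with a Spearman's rho of 0.703 between the densities of 22 autosomes, which share the libraries and the same peak calls. Of all common regions 11.4% were long, and for 19 of the 22 autosomes the 95% Wilson interval of that share held this value. The exceptions were chromosome 16, at 0%, chromosome 6, at 6.93% (4.66 to 10.2%), and chromosome 3, at 15% (11.9 to 18.7%). These single chromosomes were picked after their values had been seen.

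**Figure D5:**
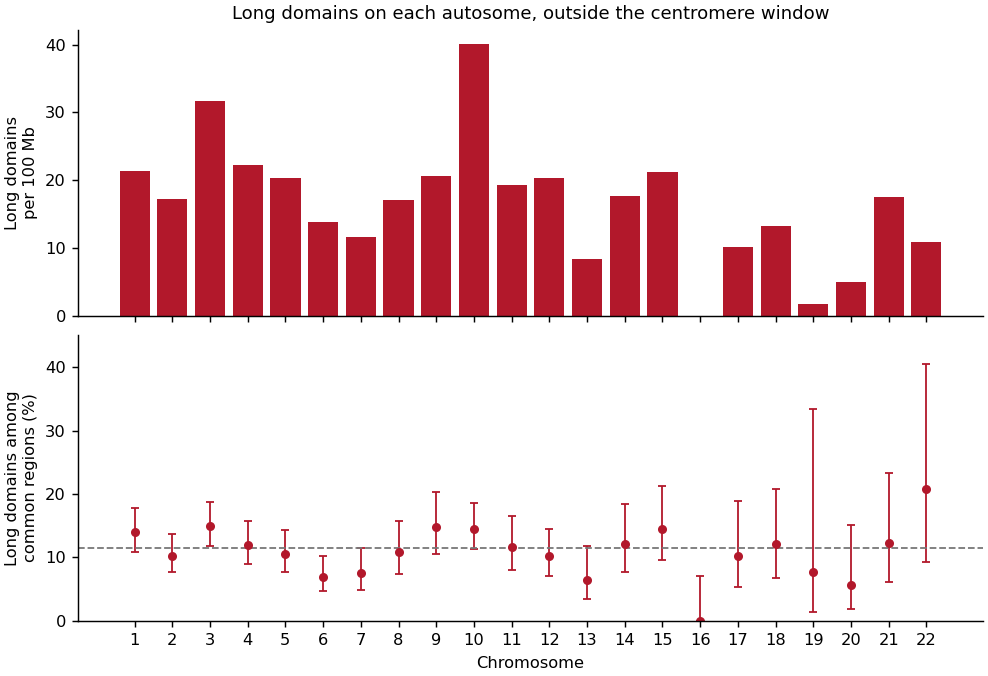
Long domains per 100 Mb outside the windows (upper panel, bars) and the percent of common regions that were long (lower panel, points with 95% Wilson intervals, dashed line at the 11.4% of all autosomes) for each of the 22 autosomes. Chromosome 10 stood highest in density at 40.1 per 100 Mb, and the intervals of chromosomes 3, 6 and 16 did not hold the dashed line.

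Within chromosome 10 the domains were unevenly spread. Beyond 60 Mb, in the distal long arm, there were 46 (61.7 per 100 Mb), before 60 Mb there were 6 (10.9 per 100 Mb), and the other autosomes had 459 (17.3 per 100 Mb). Short regions stood at 283, 173 and 138 per 100 Mb in these places, so that 17.9% of the common regions from 60 Mb on were long against 11.1% on the other autosomes. An IgG peak of either siRNA lay in 16 of the 46 domains from 60 Mb on (34.8%), in 0 of the 6 before it, which allows a share of up to 50%, and in 8.93% of the 459 elsewhere, where the share over all common regions was 8.16%. A siNeg CENP-A peak lay in 5 of the 46 (10.9%), in 1 of the 6 (16.7%) and in 3.92% of the 459. Over all common regions this share was 1.96%. Domains from 60 Mb on thus held IgG and siNeg CENP-A peaks more often than those on the other autosomes. Averaged over the whole of chromosome 10, the control lists were also dense, but how their peaks divided at 60 Mb was not measured. Per 5 Mb outside its window, siNeg IgG held 107 kb, the most of any autosome. SiNeg CENP-A replicates 1 and 3 held 14.4 and 5.13 kb, also the most. SiDNAJC9 IgG held 198 kb, after 199 kb on chromosome 19. Short regions there were not compared for these peaks, so the higher shares are not shown to be particular to long domains. The part of these peaks in the density of domains was not tested. The step at 60 Mb was taken from earlier results of these data.

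Toward the centromeres and the chromosome ends, the domains showed no crowding beyond the length of those zones. Within 5 Mb of a window lay 33 of the 511 (6.46%, 4.64 to 8.93%), while this zone made up 7.90% of the sequence outside the windows. It held 5.06% of the short regions and 5.22% of all common regions, and the interval of the long domains held both values. The nearest to a window, at chr3:96663001-96682000, was 22 kb from it, and the median distance was 40.8 Mb. Within 5 Mb of a chromosome end lay 13 (2.54%, 1.49 to 4.30%), where the zone made up 7.90% as well and held 2.37% of the short regions. Domains near the chromosome ends were thus fewer than the length of those zones would give, and so were the short regions.

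The domains often had another in their vicinity. Of the 511, 306 (59.9%, 55.6 to 64.0%) had the nearest other long domain within 1 Mb, while 44.5% (43.0 to 46.1%) of the short regions had a long domain within 1 Mb. Between the 490 neighboring pairs on a chromosome the gap ran from 1 kb to 43718 kb with a median of 1769 kb, and in 70 pairs it was at most 100 kb. The share within 1 Mb depended on the rule and on both libraries: it was 35.4% for the 147 domains of 20 kb or more and 32.6% for the 190 long peaks of siDNAJC9 replicate 3 taken without replicate 1. The nearest common region of any length was 34 kb away in the median for a long domain and 73 kb for a short region. That nearest region was itself long for 14.7% (11.9 to 18.0%) of the long domains and 12.2% of the short regions, where 11.4% of all common regions were long.

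When domains no more than 1 Mb apart were linked, the 306 fell into 105 chains and 205 stood alone. Of the chains, 54 had 2 members, 32 had 3 and 10 had 5 or more. Chromosome 10 carried the chain of most members, 10 domains at chr10:89522001-95083000, and another of 8 at chr10:61674001-63247000. A chain of 7 at chr3:101432001-102749000 included the domain that was called in both siNeg libraries. The 5-Mb stretches with the most domains held 9 each, at chr10:90157001-95083000 (195 kb of domain sequence), chr10:61674001-64575000 (167 kb) and chr3:113788001-117280000 (153 kb).

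Some neighbors were almost joined. A domain of 30 kb at chr6:56547001-56577000 and one of 24 kb at chr6:56578001-56602000 stood 1 kb apart, and counted as 2 domains because no called peak bridged the gap. How close a pair may stand before it is counted as 1 domain therefore sets the number and the length of the domains. The chains and the closest pairs were chosen after their values had been seen.

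The number of domains depended on the rule and on both libraries. SiDNAJC9 replicate 3 on its own gave 190 long peaks and replicate 1 gave 386, and a least length of 12 or 20 kb gave 984 or 147 domains. Without the peaks that overlapped a siDNAJC9 IgG peak 471 domains were left, and without chromosome 10 from 60 Mb on 465.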

How the data were processed

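CUT&RUN libraries of hTERT-RPE1-Tet-GFP-CENP-A cells were analysed from the deposited peak lists, which give start and end positions and no score, count or p-value. Per the study's methods, the authors trimmed reads with Cutadapt, aligned them with bowtie2 to T2T-CHM13v2.0, removed duplicates with Picard, used an E. coli spike-in and called broad peaks per library with GoPeaks in the CARLISLE pipeline. The submitters' notes name bcl2fastq, Bowtie and T2T-CHM13. Broad calling and its joining of neighboring signal set the lengths reported here, and depth is not given by the lists.

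Overlapping autosomal peaks (at least 1 bp; touching peaks were kept apart) of both siDNAJC9 CENP-A lists were merged in Python 3.11.15 with numpy 2.4.6 and pandas 2.3.3. Regions with a peak of each list, at least 15 kb and with no base in the 5-Mb window of greatest siNeg replicate 1 coverage were kept. Chromosome ends were the highest position in any list. Intervals are 95% Wilson intervals (scipy 1.17.1) and cover counting error only. An exact permutation test of the number of long peaks over libraries, described as biological repeats, was planned. With 2 libraries per siRNA it could not reach the usual level of significance. Its p-value is not given, also because the selection of the domains used the same peak lengths. Merging, windows and the test were checked on simulated data against bedtools 2.31.1. Named regions were the 10 longest domains, up to 5 with the most siNeg and up to 5 with the most IgG sequence, the first of 15 and of 14 kb, and the densest 5-Mb stretches. Further regions were picked once their values had been seen. The rule, the members and all comparisons were chosen with earlier results of these data known. Positions are 1-based. No gene annotation or sequence of this build was used, so genes and sequences of the domains were not analysed here. Alternatives changed the least length, the window, the joining of peaks, the shared part, the smallest peak, IgG overlap and single libraries.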

Additional observations from a re-analysis of the deposited data

How the results depend on the processing

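The number of long domains and their spacing followed the rule. A least length of 12 kb gave 984 domains, of which 71.85% had another within 1 Mb, and 20 kb gave 147, with 35.37% within 1 Mb and a siNeg CENP-A peak in 7.483%. With peaks up to 5 kb apart joined there were 1130 domains, 41.64% of their bases were shared by both siDNAJC9 replicates and 73.89% had another within 1 Mb. Where both replicates had to share at least 50% of a region, 339 were left, with 70.66% of bases shared and 52.21% within 1 Mb. Without peaks that overlapped a siDNAJC9 IgG peak, the share of domains with one was 0% by construction. Long peaks of a single siDNAJC9 replicate (each left out in turn) numbered 190 to 386, with 57.39 to 77.17% of their bases under peaks of the other replicate, a siDNAJC9 IgG peak in 5.699 to 7.895% and another within 1 Mb for 32.63 to 48.45%. Windows from siNeg replicate 3 gave 511 domains, and windows widened by 5 Mb on each side gave 478.

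The log2 difference in the number of long peaks between the siRNAs was 7.57 to 8.655 over the alternatives that gave one. With the replicate block it was 8.081, given as a value with no test. At 20 kb it had no value, as both siNeg libraries had 0. Joining touching peaks and leaving out chromosome 10 from 60 Mb were added after the data had been seen and gave 532 and 465 domains. The lists did not give the depth of each library, and 1 IgG library per siRNA gave no spread.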

Other observations

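Chromosome X was outside the rule for the long domains. By the same steps it had 21 regions common to both siDNAJC9 CENP-A lists in 148 Mb outside its window. Of these 0 reached 15 kb, which allows a share of up to 14.3%, and the longest measured 11 kb. The siNeg CENP-A lists had 2 common regions there, with 0 of 15 kb or more.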
